A study of Mus musculus with 16 samples.

Results

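The 45 genes described here encode the machinery that copies DNA in S phase, and they were followed through 16 RNA-seq libraries of mouse pancreatic cancer cells sorted by 2 fluorescent reporters. They were chosen by name, as genes of origin licensing, the replication fork, nucleotide supply and the entry into S phase, and matched through Entrez identifiers. All 45 were among the 24467 genes listed, and all 45 passed the expression filter that left 15963 genes for testing. The sorted groups were mScarlet (positive for mScarlet alone), DP (positive for both reporters), GFP (positive for GFP alone) and DN (negative for both), with 4 libraries each, and the series description gives 4 mice per group. All groups come from 1 cell line, KPC 7TCF-eGFP/Porcn-DMA, implanted in the pancreas of host mice (orthotopic tumours). KPC lines derive from mouse pancreatic ductal adenocarcinoma. The 7TCF-eGFP reporter places GFP under TCF sites and thereby reads out canonical WNT signalling. The make-up of Porcn-DMA, the clonality of the line and the strain and age of the hosts are not stated in the labels, and no label says in words what mScarlet reports.

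DNA replication begins with licensing in G1, when the origin recognition complex, Cdc6 and Cdt1 load rings of the MCM helicase onto DNA. At the start of S phase Cdc45 and the GINS complex join the MCM ring to make the active helicase, DNA polymerases copy both strands behind it, and the lagging strand is made in short pieces that are then joined. Transcription of most of these genes is driven by E2F factors once cyclin-dependent kinases release them from the retinoblastoma protein, so their messages are commonly read as a sign of cycling cells. In pancreatic ductal adenocarcinoma the G1/S checkpoint is often weakened by loss of its inhibitors.

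Total counts per library were 80728607 to 92937247 in the mScarlet gate, 80647185 to 87909931 in the DP gate, 82118426 to 100358451 in the GFP gate and 88707082 to 104273669 in the DN gate. Levels are in CPM, counts scaled to a common library total with TMM factors, and where 4 values are given for a group they follow library numbers 1 to 4. The labelled cell type was checked against epithelial markers. Krt8, Krt18, Krt19, Krt7 and Cdh1 were detected in every library, with Krt19 at 5770 to 16800 CPM, whereas Epcam reached at most 29 CPM and was at 0 in 4 libraries, Cldn4 was at 0 in 2 and Cldn7 in 8. Of the markers of other cell types, 12 macrophage genes summed to 5050 to 8780 CPM in the mScarlet gate, 6880 to 13700 in the DP gate, 4280 to 33100 in the GFP gate and 4550 to 7010 in the DN gate, with none at 0 in all libraries of a group. Summed over 10 fibroblast genes, the levels were 17.5 to 88.3 CPM in the mScarlet gate, 27 to 272 in the DP gate, 609 to 9310 in the GFP gate and 135 to 1440 in the DN gate. GFP library 1 held the macrophage maximum, and GFP library 4 held the fibroblast maximum and 27100 CPM of acinar enzymes, against 874, 2480 and 374 CPM in GFP libraries 1 to 3. These 2 libraries stand apart, and the main counts are given below with and without them. In bulk RNA, fewer cells in S phase and less message per cell cannot be told apart.

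Replication genes were lower in the mScarlet-positive gates. Comparing the mean of mScarlet and DP with the mean of GFP and DN in 1 fit, 25 of 45 genes were called lower and 0 higher, where a call is a Benjamini-Hochberg adjusted p under 0.05 over all genes tested in edgeR's quasi-likelihood test. Over all genes, 5.21% were called lower in this comparison. It counts the same-numbered libraries of 2 gates on 1 side as separate replicates. Their deviations from group means correlated at 0.293 to 0.576 between mScarlet and DP and at 0.304 to 0.608 between GFP and DN. The p-values do not allow for this. The difference also varied by library number, as given below for number 1, and no fit has a term for that. The median log2 fold change of the 45 genes was -0.69, that of all genes was -0.02, and 43 of 45 genes had a negative value, Rfc1 and Pole being the exceptions. In this fit every step had at least 1 call, with 7 of 10 licensing genes, 4 of 6 helicase activation genes, 3 of 6 clamp and clamp loader genes, 1 of 3 genes of the single-strand binding protein, 1 of 7 polymerase and primase genes, 1 of 2 genes of Okazaki fragment joining, 4 of 5 nucleotide supply genes, 2 of 3 chromatin genes and 2 of 3 G1/S regulators. Without GFP libraries 1 and 4, 18 of 45 genes were called lower, 17 of them shared with the 25, against 2.35% of all genes. Orc6, Cdc6, Rfc4, Rpa2, Lig1, Rrm2, Chaf1a and E2f1 lost their call there and Mcm2 gained one. Rpa2 and Lig1 had been the only called genes of single-strand binding and of Okazaki fragment joining, so these steps then had no call. Leaving out each of the 16 libraries in turn gave 18 to 26 calls. Of the 25 genes, 18 kept their call in every one of these removals, and the other 7 (Orc6, Rfc4, Rpa2, Lig1, Rrm2, Chaf1a and E2f1) lost it in 9 to 12 of them. Each of the 7 lost it without mScarlet 1, mScarlet 2, DP 1, DP 2, DP 3, GFP 1, DN 1 and DN 4, each left out alone.

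**Figure D1:**
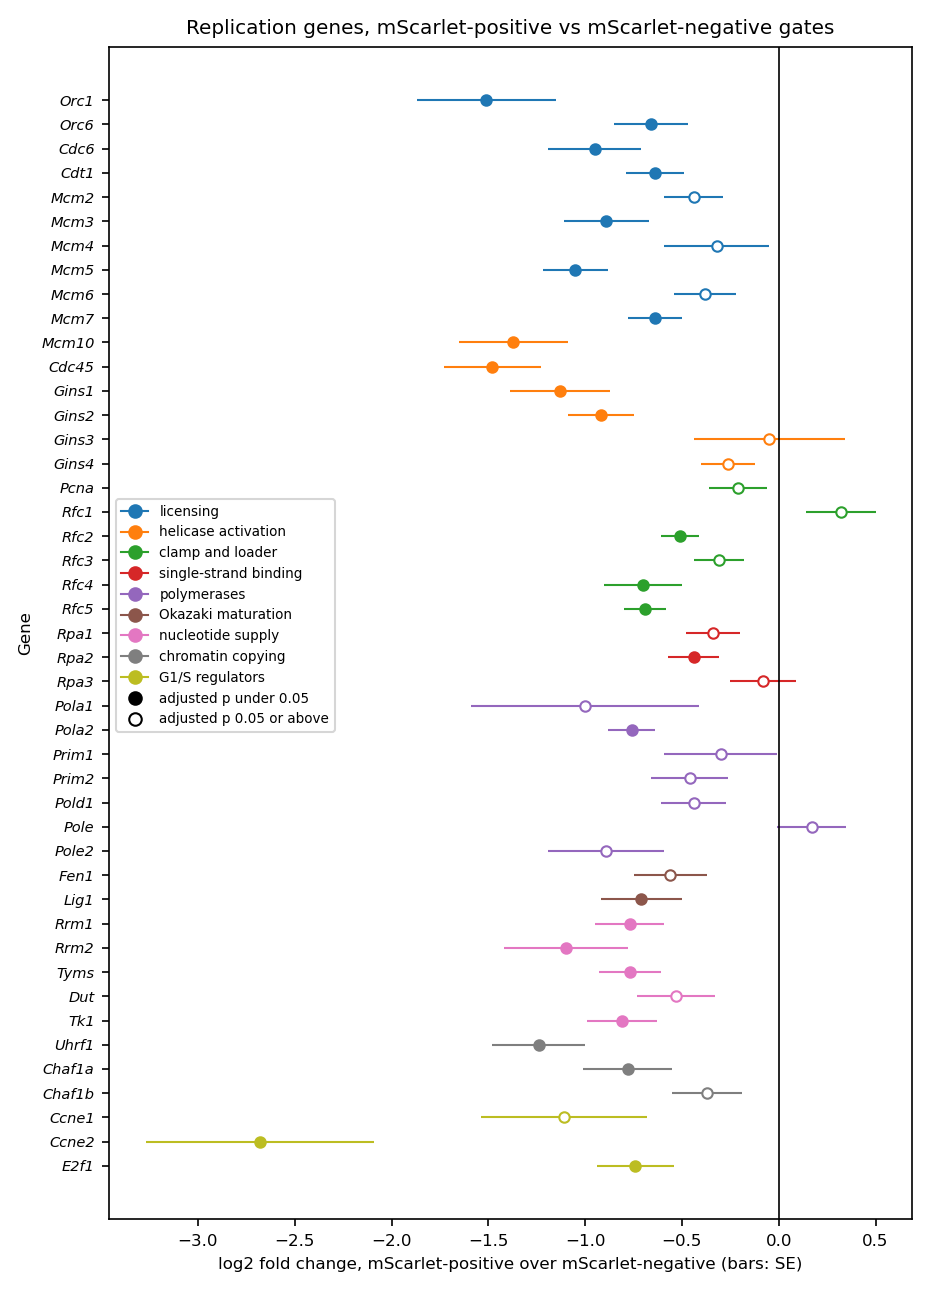
Log2 fold change of each of the 45 genes in the mScarlet-positive gates (mScarlet and DP) over the mScarlet-negative gates (GFP and DN), with the standard error as a bar, coloured by role. Filled points are the 25 genes with an edgeR adjusted p under 0.05, all below 0. Rfc1 and Pole are the 2 points above 0, both open.

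**Figure D2:**
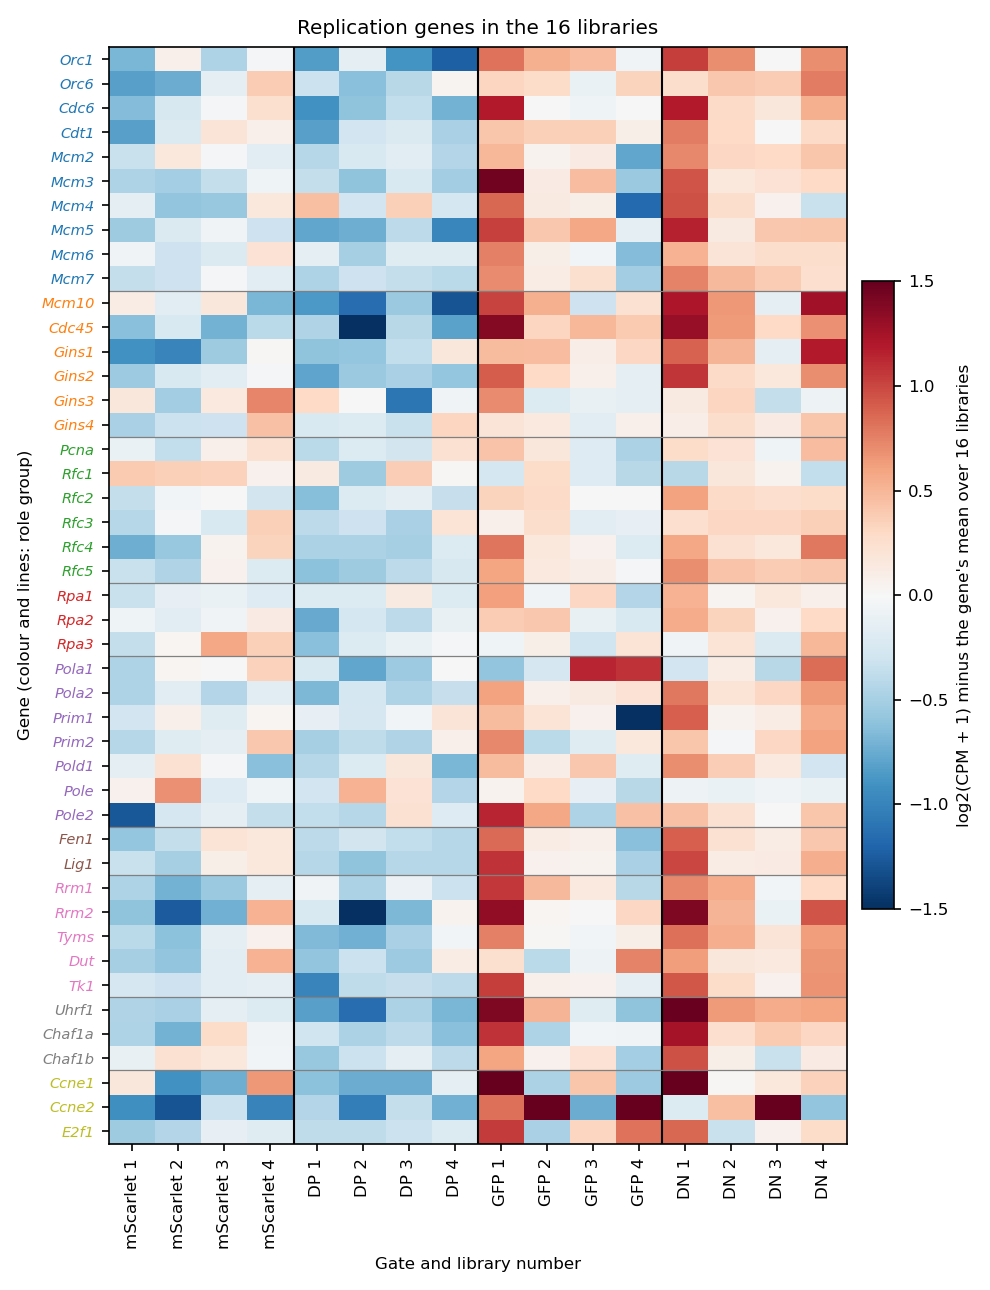
Each cell is the log2(CPM + 1) of 1 gene in 1 library minus that gene's mean over the 16 libraries, with genes in rows by role and libraries in columns by gate. Columns GFP 1 and DN 1 are the reddest, and GFP 1 held the highest value of its gate for 36 of 45 genes and DN 1 for 30.

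Origin licensing was lower in the mScarlet-positive gates for 7 of 10 genes, and all 10 had negative log2 fold changes (-1.51 to -0.32). Orc1 encodes the large subunit of the origin recognition complex. Orc1 was at 1.11, 2.58, 1.46 and 2.33 CPM in the mScarlet gate, 0.899, 2.06, 0.823 and 0.451 in the DP gate, 4.98, 3.89, 3.67 and 2.28 in the GFP gate and 5.94, 4.51, 2.37 and 4.5 in the DN gate. The DP libraries all lay under the GFP and DN libraries, whereas mScarlet overlapped both, and the difference of the mScarlet-positive gates was large (log2 fold change -1.51 with SE 0.36, adjusted p = 0.0164 in edgeR), with Prpf38a overlapping the gene. Orc6, a small subunit of the same complex, also fell (log2 fold change -0.66 with SE 0.19, adjusted p = 0.0411 in edgeR). Orc6 was at 8.55, 9, 14.2 and 20.8 CPM in the mScarlet gate, 12.4, 9.8, 11.5 and 16.2 in the DP gate, 19.9, 19.2, 14.6 and 20.1 in the GFP gate and 19.1, 21.2, 20.8 and 27.5 in the DN gate. All DP libraries and mScarlet 1 to 3 were below all DN libraries, and mScarlet 4 lay among them.

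The MCM loaders Cdc6 and Cdt1 fell together. Cdc6 was at 7.51, 10.3, 12.2 and 14.8 CPM in the mScarlet gate, 6.11, 7.78, 9.33 and 7.18 in the DP gate, 29.5, 12.3, 11.8 and 12.4 in the GFP gate and 29.6, 15.3, 14 and 18.3 in the DN gate. All DP libraries were below all GFP and DN libraries, GFP 1 and DN 1 were the highest, and mScarlet 4 overlapped the GFP and DN ranges (log2 fold change -0.95 with SE 0.24, adjusted p = 0.0204 in edgeR). Cdt1, which is destroyed in S phase to stop relicensing, was lower as well (log2 fold change -0.64 with SE 0.15, adjusted p = 0.0179 in edgeR). Cdt1 was at 26.9, 41.1, 55.1 and 50.8 CPM in the mScarlet gate, 26.9, 39.4, 41.3 and 34 in the DP gate, 64.6, 61.7, 61.7 and 51.3 in the GFP gate and 82.5, 59.3, 48.4 and 58.7 in the DN gate. The 4 DP libraries stood under every GFP and DN library, while mScarlet 3 and 4 did not.

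Of the 6 subunits of the MCM helicase ring, Mcm5, Mcm3 and Mcm7 were called lower and Mcm2, Mcm4 and Mcm6 were not. Mcm5 (chromosome 8, 75109468 to 75128439, GRCm38) had the clearest difference. Mcm5 was at 75.9, 94.8, 106 and 88.8 CPM in the mScarlet gate, 63.5, 65.9, 83.8 and 55.3 in the DP gate, 225, 146, 165 and 99.3 in the GFP gate and 245, 121, 146 and 147 in the DN gate. Every mScarlet and DP library lay below every DN library, and mScarlet 3 alone overlapped GFP library 4 (log2 fold change -1.05 with SE 0.17, adjusted p = 0.00214 in edgeR). Mcm3 was at 46.6, 45.1, 50.2 and 61.8 CPM in the mScarlet gate, 50.2, 42.3, 54.8 and 44.8 in the DP gate, 178, 70.7, 89.4 and 43.7 in the GFP gate and 125, 72.1, 75.5 and 80 in the DN gate. Mcm3 was thus below all DN libraries in both mScarlet-positive gates, and GFP 4 was the only mScarlet-negative library in their range (log2 fold change -0.89 with SE 0.22, adjusted p = 0.0206 in edgeR). Mcm7 was at 110, 113, 138 and 125 CPM in the mScarlet gate, 102, 113, 110 and 106 in the DP gate, 231, 152, 166 and 97.9 in the GFP gate and 236, 198, 184 and 168 in the DN gate. Mcm7 showed the same split, again with GFP 4 low (log2 fold change -0.64 with SE 0.14, adjusted p = 0.00974 in edgeR), though its gene overlaps Ap4m1 and a cluster of microRNA genes. Mcm6 had the smallest difference of the ring subunits in mScarlet vs DN. Mcm6 was at 106, 88.3, 94.3 and 128 CPM in the mScarlet gate, 99.9, 77.4, 96.8 and 96.8 in the DP gate, 186, 117, 107 and 69.6 in the GFP gate and 158, 126, 132 and 132 in the DN gate. GFP 4 was the lowest and GFP 1 the highest of the 16 libraries for Mcm6, and the difference of the mScarlet-positive gates missed the threshold (log2 fold change -0.38 with SE 0.16, adjusted p = 0.143 in edgeR). Mcm2 (log2 fold change -0.44 with SE 0.15, adjusted p = 0.0697 in edgeR) and Mcm4 (log2 fold change -0.32 with SE 0.27, adjusted p = 0.524 in edgeR) missed it too. Per kilobase of exon, the ring subunits differed in level although they act in equal numbers. Mcm7 averaged 27.4 CPM per kilobase in the mScarlet gate, 24.3 in the DP gate, 36.6 in the GFP gate and 44.4 in the DN gate, and Mcm4 averaged 3.6 in the mScarlet gate, 4.69 in the DP gate, 4.82 in the GFP gate and 5.46 in the DN gate.

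Promoters of 3 of these genes are printed because the members moved together and many carry E2F-type motifs. The strings searched were TTTCCCGC, TTTGGCGC and TTTCGCGC on both strands, from 250 bases before to 50 after the transcription start in the RefSeq promoter table of GRCm38.p6. A match in this window was present for 14 of 37 members with an entry, or 37.8%, and for 573 of 27025 genes, or 2.12%. These 27025 are all genes with an entry, not only those among the 15963 tested, and the motif shares of all genes below use the same set. Matches were about as common among members called lower in the mScarlet-positive gates (8 of 21, 38.1%) as among the others (6 of 16, 37.5%). The stretches below lie upstream of the start and of the annotated gene, on the gene's strand, 5′ to 3′, with matched bases in capitals. Mcm5 was called lower, Mcm6 was not called although its stretch holds more matched bases, and Pola2 was called lower with no match in the whole window. Overlapping matches run together, as TTTCGCGC with the reverse complement of TTTGGCGC in Mcm5.
Mcm5, chr8:75109339-75109467, plus strand: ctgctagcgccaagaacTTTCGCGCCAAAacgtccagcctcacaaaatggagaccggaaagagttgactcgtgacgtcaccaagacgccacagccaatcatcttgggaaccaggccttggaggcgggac
Mcm6, chr1:128359706-128359875, minus strand: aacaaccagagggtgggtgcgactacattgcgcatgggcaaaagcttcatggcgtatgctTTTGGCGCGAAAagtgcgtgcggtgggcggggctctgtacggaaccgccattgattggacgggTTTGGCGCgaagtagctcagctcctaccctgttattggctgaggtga
Pola2, chr19:5964239-5964376, minus strand: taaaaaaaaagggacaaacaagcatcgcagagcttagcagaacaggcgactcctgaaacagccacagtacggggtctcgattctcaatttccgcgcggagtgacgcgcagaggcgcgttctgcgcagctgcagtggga
CCAAT, the core of the NF-Y site, was in 22 of 37 members, or 59.5%, and in 41.1% of all genes. TTTGAA, the core of the cell cycle homology element of G2/M promoters, was in 4 members, or 10.8%, and in 20.2% of all genes, and its variant TTCGAA was in 5.41% of members and 1.8% of all genes. A match is a description of these letters and not evidence of a bound site.

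Helicase activation was lower for 4 of 6 genes. Cdc45, which joins the MCM ring with GINS, lies on chromosome 16 from 18780447 to 18811972 and overlaps Ufd1, whose reads cannot be told apart without strand. Cdc45 was at 8.61, 11.7, 8.09 and 10.2 CPM in the mScarlet gate, 9.84, 3.05, 10.1 and 7.5 in the DP gate, 37.6, 17.5, 19.9 and 18.5 in the GFP gate and 35.6, 22.2, 17.3 and 22.8 in the DN gate. The 8 mScarlet-positive libraries reached at most 11.7 CPM and the 8 mScarlet-negative libraries at least 17.3 CPM, with no overlap (log2 fold change -1.48 with SE 0.25, adjusted p = 0.00253 in edgeR). Cdc45 and Pola2 were the 2 of 45 genes with such a complete separation, against 1.03% of all genes. Mcm10, which helps switch the helicase on, was lowest in DP. Mcm10 was at 6.71, 5.41, 7.03 and 3.44 CPM in the mScarlet gate, 2.94, 2.24, 3.87 and 1.92 in the DP gate, 13.4, 9.35, 4.76 and 7.42 in the GFP gate and 15.6, 10.2, 5.47 and 16.1 in the DN gate. DP lay under every GFP and DN library, and mScarlet overlapped DN through DN 3 (log2 fold change -1.37 with SE 0.28, adjusted p = 0.00738 in edgeR).

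The GINS subunits divided. Gins1 was at 2.31, 2.14, 3.31 and 5.28 CPM in the mScarlet gate, 3.09, 3.16, 3.81 and 5.97 in the DP gate, 7.66, 7.53, 5.64 and 6.71 in the GFP gate and 10.5, 7.87, 4.6 and 13.2 in the DN gate. Gins1 was low in mScarlet 1 to 3, and DN 3 was the only DN library in the mScarlet-positive range (log2 fold change -1.13 with SE 0.26, adjusted p = 0.0157 in edgeR). Gins2 was at 17.2, 21.7, 22.8 and 25.1 CPM in the mScarlet gate, 14.4, 17.1, 17.9 and 16.7 in the DP gate, 49, 31.7, 27 and 23.1 in the GFP gate and 54.6, 31.5, 28.6 and 41.9 in the DN gate. Every mScarlet and DP library of Gins2 was below every DN library, and DP was also below all GFP libraries (log2 fold change -0.92 with SE 0.17, adjusted p = 0.00454 in edgeR); the gene overlaps Gse1. Gins3 gave no direction at low levels. Gins3 was at 2.57, 1.2, 2.51 and 4.28 CPM in the mScarlet gate, 2.9, 2.19, 0.496 and 2.05 in the DP gate, 4.19, 1.75, 1.93 and 1.88 in the GFP gate and 2.48, 2.96, 1.47 and 2 in the DN gate. Its gates overlapped throughout (log2 fold change -0.05 with SE 0.39, adjusted p = 0.961 in edgeR). Gins4 (log2 fold change -0.26 with SE 0.14, adjusted p = 0.284 in edgeR) missed the threshold with levels of 33.7 to 65 CPM over all libraries.

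Of the clamp loader subunits, Rfc2, Rfc4 and Rfc5 fell, and the clamp did not pass the test. Rfc5 (chromosome 5, 117379145 to 117389023), a small subunit of replication factor C that opens the PCNA ring, had the smallest adjusted p of the clamp loader genes. Rfc5 was at 57, 52.5, 75.2 and 62.2 CPM in the mScarlet gate, 46.5, 49.2, 54.4 and 60.5 in the DP gate, 109, 79.4, 76.8 and 70.6 in the GFP gate and 117, 96.9, 93.5 and 95.5 in the DN gate. Both mScarlet-positive gates lay below all DN libraries, and mScarlet 3 alone reached into the GFP range (log2 fold change -0.69 with SE 0.11, adjusted p = 0.00193 in edgeR). Rfc2 was at 96.4, 120, 123 and 102 CPM in the mScarlet gate, 79.1, 107, 112 and 96.9 in the DP gate, 157, 152, 124 and 123 in the GFP gate and 189, 151, 148 and 150 in the DN gate. Rfc2, another small subunit, was below all DN libraries in both gates as well (log2 fold change -0.51 with SE 0.10, adjusted p = 0.00677 in edgeR). Rfc4 was at 6.71, 7.61, 12.2 and 15.1 CPM in the mScarlet gate, 8.17, 8.16, 8 and 10.1 in the DP gate, 21.2, 13.2, 12.3 and 10.1 in the GFP gate and 18.1, 14, 13.2 and 21.1 in the DN gate. Rfc4 separated DP from DN completely and mScarlet incompletely (log2 fold change -0.70 with SE 0.20, adjusted p = 0.0456 in edgeR), and its gene overlaps Eif4a2, an abundantly expressed gene. Pcna, the sliding clamp itself, showed a small difference. Pcna was at 38.8, 32, 43.8 and 49.1 CPM in the mScarlet gate, 31.2, 35.9, 34.2 and 49.1 in the DP gate, 56.4, 46.9, 36.1 and 29.6 in the GFP gate and 50.4, 48.6, 39.8 and 57.5 in the DN gate. All 4 gates overlapped (log2 fold change -0.21 with SE 0.15, adjusted p = 0.416 in edgeR). Rfc1, the large subunit, had a positive value (log2 fold change 0.32 with SE 0.18, adjusted p = 0.306 in edgeR) and Rfc3 a negative one (log2 fold change -0.31 with SE 0.13, adjusted p = 0.171 in edgeR), both short of the threshold.

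RPA, the trimer that coats unwound single strands, had 1 subunit called lower. Rpa2 was at 30.1, 28.1, 30.3 and 34.5 CPM in the mScarlet gate, 18.2, 26.1, 23.7 and 29.2 in the DP gate, 41.2, 42.1, 29 and 26.8 in the GFP gate and 47, 39.9, 33 and 38.9 in the DN gate. DP 1 was the lowest library of Rpa2, DP lay below DN without overlap, and the call was near the threshold (log2 fold change -0.44 with SE 0.13, adjusted p = 0.049 in edgeR). Rpa1 was at 45.6, 52.8, 54 and 50.5 CPM in the mScarlet gate, 50.1, 49.8, 63.8 and 50 in the DP gate, 88.7, 55.8, 71.8 and 42.4 in the GFP gate and 83.4, 59.3, 64.8 and 61.1 in the DN gate. Rpa1, the large subunit, was below DN in all mScarlet libraries, and GFP 4 was lower than these (log2 fold change -0.34 with SE 0.14, adjusted p = 0.133 in edgeR), and Smyd4 overlaps the gene. Rpa3 was at 13.2, 17.7, 26.2 and 22.4 CPM in the mScarlet gate, 10.8, 14.8, 16 and 17 in the DP gate, 16.5, 18.4, 13.8 and 20 in the GFP gate and 16.6, 20.1, 14.7 and 24.8 in the DN gate. Rpa3, the smallest subunit, had its highest value in mScarlet 3 and overlapped in all gates (log2 fold change -0.08 with SE 0.17, adjusted p = 0.82 in edgeR).

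Among the polymerases only Pola2 was called. Pola2, the regulatory subunit of the polymerase alpha-primase complex that starts each new strand, lies on chromosome 19 from 5940543 to 5964238. Pola2 was at 51.5, 63.9, 52.3 and 63.9 CPM in the mScarlet gate, 44.3, 59.2, 51.4 and 55.8 in the DP gate, 109, 75.3, 78.2 and 83.2 in the GFP gate and 124, 82.3, 88.4 and 112 in the DN gate. The mScarlet-positive libraries ran from 44.3 to 63.9 CPM and the mScarlet-negative libraries from 75.3 to 124 CPM, so the groups did not overlap (log2 fold change -0.76 with SE 0.12, adjusted p = 0.00122 in edgeR). Its catalytic partner Pola1 was near the limit of detection, with 15 to 287 counts per library and a wide error (log2 fold change -1.0 with SE 0.59, adjusted p = 0.324 in edgeR). Pole2, a subunit of the leading-strand polymerase epsilon, was below DN in all mScarlet libraries. Pole2 was at 1.03, 3.11, 3.44 and 2.81 CPM in the mScarlet gate, 2.8, 2.63, 4.74 and 3.28 in the DP gate, 9.76, 6.34, 2.55 and 5.62 in the GFP gate and 5.66, 4.73, 3.88 and 5.53 in the DN gate. Yet DP 3 lay inside the DN range and the pooled difference missed the threshold (log2 fold change -0.89 with SE 0.30, adjusted p = 0.0773 in edgeR), for a gene that Klhdc1 overlaps. Pole, the catalytic subunit of the same enzyme, was not called. Pole was at 20.2, 31.4, 16.7 and 18.3 CPM in the mScarlet gate, 15.5, 28.1, 22.5 and 13.9 in the DP gate, 20, 23.8, 17.6 and 14.2 in the GFP gate and 18.1, 17.9, 18.5 and 17.8 in the DN gate. Its DN libraries were within 1 CPM of each other, and mScarlet 2 and DP 2 were the highest of the 16 (log2 fold change 0.17 with SE 0.18, adjusted p = 0.615 in edgeR). Pold1 (log2 fold change -0.44 with SE 0.17, adjusted p = 0.12 in edgeR), Prim1 (log2 fold change -0.30 with SE 0.29, adjusted p = 0.598 in edgeR) and Prim2 (log2 fold change -0.46 with SE 0.20, adjusted p = 0.179 in edgeR) had negative values that were not called, and Pold1 was called lower with the replicate block (adjusted p = 0.0204 in edgeR).

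Both genes of Okazaki fragment joining had negative values and Lig1 was called. Lig1 was at 23.9, 21.3, 32.5 and 34.1 CPM in the mScarlet gate, 22.3, 19.7, 22.3 and 22.3 in the DP gate, 65.6, 32, 31.6 and 21.4 in the GFP gate and 61.9, 33, 33.3 and 44.8 in the DN gate. Lig1, the ligase that seals the fragments, was low and tight in DP and high in GFP 1 and DN 1 (log2 fold change -0.71 with SE 0.21, adjusted p = 0.0438 in edgeR), in a gene model that Zswim9 overlaps. Fen1 was at 36.8, 43.3, 64.2 and 62.2 CPM in the mScarlet gate, 42, 45.9, 42.9 and 41.1 in the DP gate, 101, 59.9, 58.8 and 35.6 in the GFP gate and 104, 65.2, 59.9 and 74 in the DN gate. For Fen1, the nuclease that trims their flaps, DP was below all DN libraries and GFP 4 was the lowest library (log2 fold change -0.56 with SE 0.19, adjusted p = 0.0745 in edgeR), a difference that was not called, and Tmem258 overlaps the gene.

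Nucleotide supply was lower for 4 of 5 genes. Rrm1 and Rrm2 form ribonucleotide reductase, which makes deoxyribonucleotides and whose Rrm2 subunit is limiting. Rrm1 was at 36.3, 30.5, 34 and 45.6 CPM in the mScarlet gate, 48.6, 35.9, 47.4 and 40.3 in the DP gate, 106, 71.4, 56.1 and 37.6 in the GFP gate and 83.5, 75, 48.9 and 62.3 in the DN gate. Both mScarlet-positive gates lay below all DN libraries for Rrm1, by a narrow margin in DP (log2 fold change -0.77 with SE 0.18, adjusted p = 0.0167 in edgeR). Rrm2 was at 29.1, 18.2, 26.8 and 64.5 CPM in the mScarlet gate, 38.1, 14.8, 27.5 and 46.2 in the DP gate, 114, 45.6, 44.7 and 55.8 in the GFP gate and 119, 63.9, 41.6 and 86.5 in the DN gate. Rrm2 spread widely within gates, and mScarlet 4 and DP 4 lay inside the DN range (log2 fold change -1.10 with SE 0.32, adjusted p = 0.0435 in edgeR). Tyms was at 30, 25.9, 36.3 and 41.9 CPM in the mScarlet gate, 24.9, 24, 28.3 and 38.8 in the DP gate, 68.1, 40.4, 39 and 42.7 in the GFP gate and 71.8, 58.7, 46.1 and 62.3 in the DN gate. Tyms, which makes thymidylate, was below all DN libraries in mScarlet and in DP (log2 fold change -0.77 with SE 0.16, adjusted p = 0.00738 in edgeR). Tk1 was at 36.3, 34.7, 38.7 and 39.1 CPM in the mScarlet gate, 21.3, 33, 33.7 and 32.6 in the DP gate, 89.5, 45.5, 45.1 and 39 in the GFP gate and 83.5, 52.6, 45.4 and 69.6 in the DN gate. Tk1, the salvage kinase for thymidine, showed the same split, and its DP libraries were also below all mScarlet libraries (log2 fold change -0.81 with SE 0.18, adjusted p = 0.0122 in edgeR); the gene overlaps Afmid. Dut was at 31, 29.2, 39.2 and 64.2 CPM in the mScarlet gate, 29.1, 35.2, 30 and 48.2 in the DP gate, 52.7, 33.4, 41.9 and 74.7 in the GFP gate and 68.8, 49.9, 49.1 and 70.6 in the DN gate. Dut, which removes dUTP, was highest in library 4 of every gate and was not called (log2 fold change -0.53 with SE 0.20, adjusted p = 0.112 in edgeR), whereas the fit with the replicate block called it lower (adjusted p = 0.0108 in edgeR).

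Chromatin copying fell for Uhrf1 and Chaf1a. Uhrf1 (chromosome 17, 56303337 to 56323486) reads hemimethylated DNA behind the fork and recruits the maintenance methyltransferase. Uhrf1 was at 36.8, 35.9, 45.9 and 44 CPM in the mScarlet gate, 28.5, 22.4, 36.3 and 31.2 in the DP gate, 136, 72.9, 44.8 and 33.1 in the GFP gate and 144, 79.7, 75.5 and 77.2 in the DN gate. The mScarlet-positive libraries reached at most 45.9 CPM and the DN libraries at least 75.5 CPM, while GFP ran from within the low range in libraries 3 and 4 to 136 CPM in library 1 (log2 fold change -1.24 with SE 0.24, adjusted p = 0.0063 in edgeR). Chaf1a and Chaf1b are subunits of CAF-1, which deposits histones on new DNA. Chaf1a was at 16.1, 13.4, 27.6 and 21.7 CPM in the mScarlet gate, 18.2, 16, 17 and 14.3 in the DP gate, 49, 16.1, 22 and 21.7 in the GFP gate and 55.2, 27.1, 29.9 and 28.2 in the DN gate. DN 1 and GFP 1 stood high for Chaf1a (log2 fold change -0.78 with SE 0.23, adjusted p = 0.0484 in edgeR), which Ubxn6 overlaps. Chaf1b was at 29, 37.2, 35.2 and 30.6 CPM in the mScarlet gate, 20.9, 25, 28.6 and 23.7 in the DP gate, 48, 32.9, 36.9 and 21.8 in the GFP gate and 62.1, 33.5, 24.8 and 34.5 in the DN gate. Chaf1b was lower in every DP library than in every mScarlet library, and the pooled difference was not called (log2 fold change -0.37 with SE 0.18, adjusted p = 0.239 in edgeR).

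**Figure D3:**
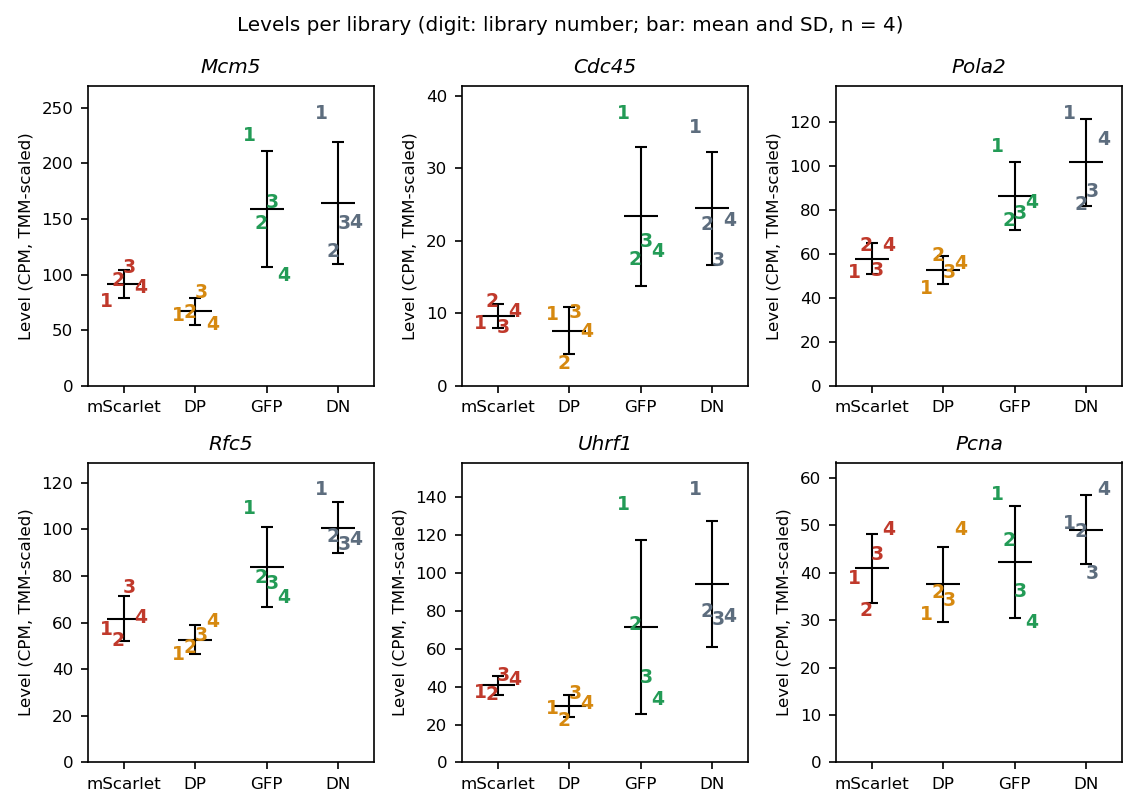
Levels of 6 genes in CPM for the 4 gates. Each digit is 1 library, placed at its level and showing its library number, and the bar gives the mean and SD of 4 libraries. Cdc45 and Pola2 separate the mScarlet and DP libraries from the GFP and DN libraries, and the 4 gates of Pcna overlap.

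Of the G1/S regulators, Ccne2 and E2f1 were called lower. Ccne2 was at 0.733, 0.337, 1.62 and 0.637 CPM in the mScarlet gate, 1.41, 0.602, 1.56 and 0.982 in the DP gate, 4.8, 10.3, 0.958 and 22.7 in the GFP gate and 1.85, 3.49, 9.64 and 1.18 in the DN gate. Ccne2, an S-phase cyclin that activates Cdk2, was under 2 CPM in all mScarlet-positive libraries, and also in GFP 3, DN 1 and DN 4. It spread from 0.958 to 22.7 CPM in GFP and from 1.18 to 9.64 CPM in DN, with 26 to 1866 counts per library. Its fold change was the largest in size of the 45 genes (log2 fold change -2.68 with SE 0.59, adjusted p = 0.0116 in edgeR), but limma voom did not call it (adjusted p = 0.134 in limma voom). The gene overlaps Ints8. E2f1 was at 22.1, 23.7, 29.9 and 28.5 CPM in the mScarlet gate, 24.7, 24.8, 25.9 and 28.2 in the DP gate, 68.6, 22.9, 41 and 58 in the GFP gate and 59.7, 25.6, 34 and 39.7 in the DN gate. E2f1, the transcription factor, was between 22.1 and 29.9 CPM in the mScarlet-positive libraries and overlapped DN through DN 2 (log2 fold change -0.74 with SE 0.20, adjusted p = 0.0331 in edgeR), and Necab3 overlaps it. Ccne1 missed the threshold (log2 fold change -1.11 with SE 0.43, adjusted p = 0.12 in edgeR), with GFP 1 at 14.4 CPM and DN 1 at 13.9 CPM above all other libraries.

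The gates were also compared in pairs. In mScarlet vs DN, 2 of 45 genes were called lower, Pola2 (log2 fold change -0.81 with SE 0.16, adjusted p = 0.0266 in edgeR) and Rfc5 (log2 fold change -0.71 with SE 0.16, adjusted p = 0.0438 in edgeR), against 0.695% of all genes. The median of the 45 genes was -0.63 beside 0 for all genes, and 41 were negative. All 4 mScarlet libraries lay below all 4 DN libraries for 15 of 45 genes, against 6.06% of all genes. Blocking on library number, 9 genes were called lower (Mcm5, Mcm7, Cdc45, Gins1, Rfc2, Rfc5, Pola2, Rrm2 and Tyms), against 2.9% of all genes. Within a number, mScarlet was below DN in all 4 numbers for 30 of 45 genes, against 14.6% of all genes. The count was 0 without mScarlet 1, 2 or 3 or DN 1 or 4, 1 without DP 1, DP 3 or DN 2, 10 without GFP 1, 6 without GFP 4, and 14 without both GFP 1 and GFP 4, against 1.83% of all genes.

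DP differed most from DN. In DP vs DN, 13 genes were called lower, against 1.71% of all genes, with Rfc5 (log2 fold change -0.94 with SE 0.16, adjusted p = 0.00687 in edgeR), Pola2 (log2 fold change -0.95 with SE 0.16, adjusted p = 0.00767 in edgeR) and Mcm5 (log2 fold change -1.30 with SE 0.25, adjusted p = 0.0114 in edgeR) having the smallest adjusted p. Orc1, Cdc6, Mcm7, Mcm10, Cdc45, Gins2, Rfc2, Tyms, Tk1 and Uhrf1 were the others, with log2 fold changes between Mcm10 at -2.11 and Rfc2 at -0.69. The median of the 45 genes was -0.82 and 43 were negative. All DP libraries lay below all DN libraries for 27 of 45 genes, against 7.37% of all genes, and DP was below DN in all 4 numbers for 36 genes, against 16.3% of all genes. With the block, 21 genes were called, against 3.9% of all genes, including the 13. Without GFP libraries 1 and 4, 21 were called, against 2.53% of all genes, and the count fell to 3 without DP 1 or DN 1 and to 8 without DP 2, DP 3 or DN 2.

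DP vs GFP compares cells with and without mScarlet within the GFP-positive gates. It shares no library with mScarlet vs DN, but the 2 comparisons are not independent. The fit shares 1 estimate of the spread, and deviations from group means correlated between same-numbered libraries. They did so at 0.293 to 0.576 between mScarlet and DP and at 0.304 to 0.608 between GFP and DN. Mcm5 was called lower (log2 fold change -1.24 with SE 0.24, adjusted p = 0.036 in edgeR), 1 of 45 genes against 0.363% of all genes. The median was -0.67, 43 genes were negative, and 41 were negative both here and in mScarlet vs DN. All DP libraries were below all GFP libraries for 12 of 45 genes, against 4.58% of all genes. With the block 7 genes were called (Orc1, Mcm5, Mcm10, Cdc45, Gins2, Rfc5 and Pola2), against 2.96% of all genes. Mcm5, Cdc45, Rfc5 and Pola2 were called with the block in both comparisons. The count was 0 without GFP libraries 1 and 4, where 18 genes had an unadjusted p under 0.05 in edgeR. No share of all genes at that unadjusted threshold was taken. In all libraries DESeq2 called 17 of the 45 genes lower, and 734 of all 15963 genes. By edgeR the count was 0 also without mScarlet 2, any single DP library, GFP 1 or DN 4, 4 without GFP 2, 8 without GFP 3 and 2 without DN 1.

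**Figure D4:**
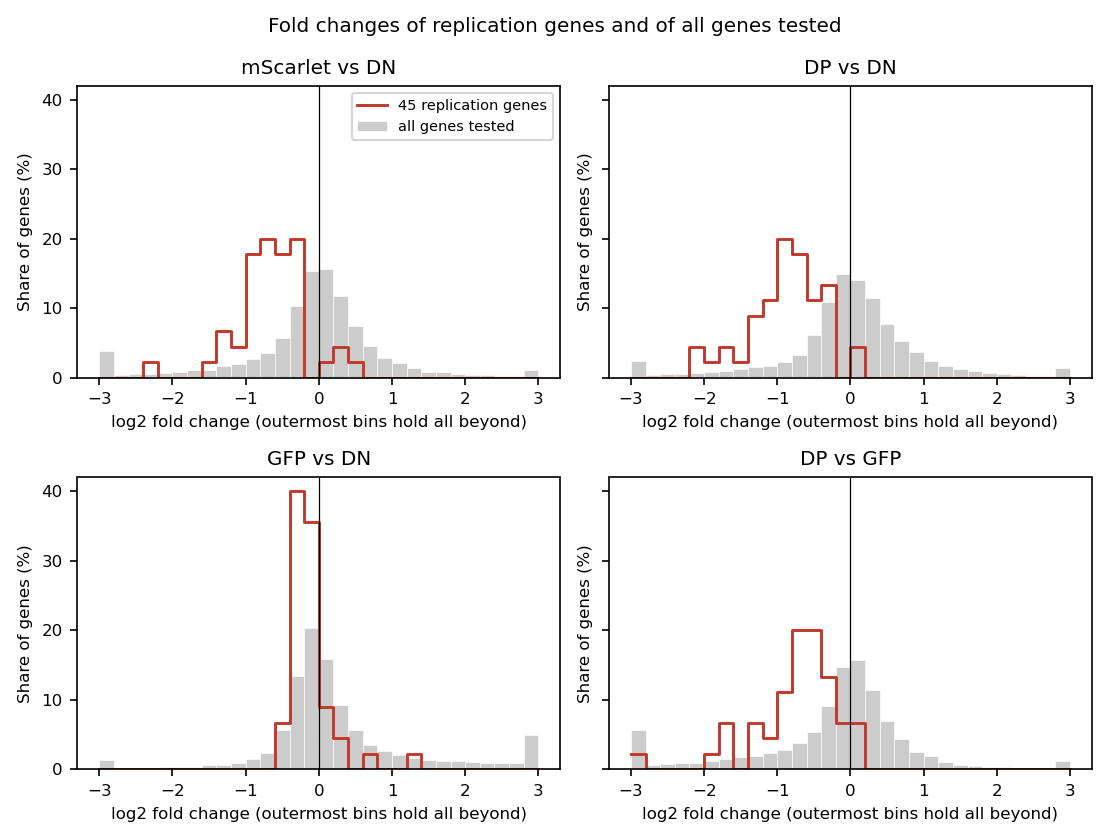
Share of genes in bins of log2 fold change, for the 45 replication genes (line) and all 15963 genes tested (bars), in 4 comparisons of gates. The line sits left of the bars in mScarlet vs DN, DP vs DN and DP vs GFP, with medians of -0.63, -0.82 and -0.67, and less far left in GFP vs DN, with a median of -0.2.

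The other 3 pairs gave no call among the 45 genes by edgeR. No share of all genes at an unadjusted p under 0.05 was taken, so the counts below at that threshold have no background. GFP vs DN had 0 calls among the 45 genes by edgeR, DESeq2 and limma voom, and 0 genes at an unadjusted p under 0.05 in edgeR. Over all genes edgeR called 0.0%, DESeq2 246 genes and limma voom 1. The median of the 45 genes in GFP vs DN was -0.2 and 37 were negative, or 82.2% against 47.7% of all genes. Leaving out 1 library gave medians of -0.4 (without GFP 1) to -0.04 (without DN 1). Without both GFP 1 and GFP 4 there were 0 calls, the median was -0.32 and 41 genes were negative. There, 8 genes were lower at an unadjusted p under 0.05 in edgeR. GFP vs mScarlet had 0 calls by edgeR, which called 1.06% of all genes higher, and 17 genes higher in GFP at an unadjusted p under 0.05 in edgeR. DESeq2 called 10 of the 45 genes higher, and 1152 of all 15963 genes. By limma voom 0 of the 45 genes were called, and 72 of all genes were called higher. The median of GFP vs mScarlet was 0.45, and all GFP libraries lay above all mScarlet libraries for 3 genes (Cdc45, Gins1 and Pola2), against 5.22% of all genes. The count was 1 without GFP 2, GFP 3, GFP 4 or DN 3, each left out alone. It was 0 without both GFP 1 and GFP 4, where the median was 0.29 and 8 genes were higher in GFP at an unadjusted p under 0.05 in edgeR. DP vs mScarlet had 0 calls among the 45 genes by edgeR, DESeq2 and limma voom, and 1 gene at an unadjusted p under 0.05 in edgeR. Over all genes edgeR called 0.0% and DESeq2 50 genes. The median of DP vs mScarlet was -0.23, and all DP libraries lay below all mScarlet libraries for 2 of 45 genes, Tk1 and Chaf1b, against 0.852% of all genes. The interaction, which asks whether the difference between DP and mScarlet differs from that between GFP and DN, called 0 of 45 genes, with 0 at an unadjusted p under 0.05 in edgeR and 0 calls in DESeq2 and limma voom, and its median was -0.05. GFP-positive against GFP-negative gates also gave 0 calls, with 3 genes lower at an unadjusted p under 0.05 in edgeR and 0 calls by the other 2 tools. Without GFP libraries 1 and 4 this comparison again gave 0 calls, and 15 genes were lower at an unadjusted p under 0.05 in edgeR.

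The gates differed most in the libraries numbered 1. The mean log2(CPM + 1) over the 45 genes was 4.29, 4.37, 4.56 and 4.71 in the mScarlet gate, 4.23, 4.2, 4.37 and 4.38 in the DP gate, 5.38, 4.85, 4.75 and 4.61 in the GFP gate and 5.38, 4.96, 4.83 and 5.09 in the DN gate. GFP 1 and DN 1 were highest in their gates, mScarlet 1 was lowest, and the mScarlet and GFP ranges overlapped through mScarlet 4 and GFP 4. Without the 4 libraries numbered 1, the mScarlet-positive gates had 6 genes called lower (Mcm5, Cdc45, Gins2, Rfc5, Pola2 and Uhrf1), against 1.22% of all genes, with a median of -0.45 and 41 genes negative. DP vs DN then had 2 calls, Rfc5 and Uhrf1, against 0.353% of all genes. By edgeR mScarlet vs DN had 0 calls, against 0.0495% of all genes, and 14 genes lower at an unadjusted p under 0.05. DP vs GFP had 0 calls by edgeR, where 0.0% of all genes were called lower. At an unadjusted p under 0.05 in edgeR, 15 genes were lower there. The shares of 0.0495% and 0.0% are for adjusted calls. No share of all genes at the unadjusted threshold was taken, so the 14 and 15 have no background. Erythroid markers summed to 205, 610, 4540 and 278 CPM in the libraries numbered 1 of mScarlet, DP, GFP and DN, the highest of each gate, and their part in the result was not tested.

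**Figure D5:**
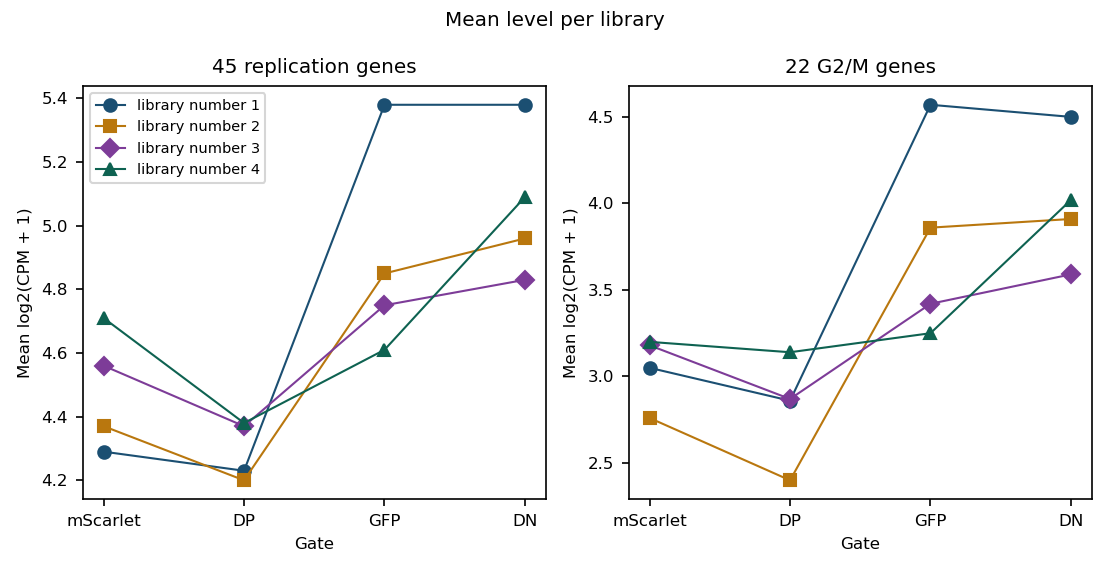
Mean log2(CPM + 1) per library for the 45 replication genes (left) and for 22 G2/M genes (right) in the 4 gates, with lines joining libraries of 1 number. Within each number DP lies below GFP and DN in both panels, and the gap is widest for number 1.

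Other genes of the same pathways were taken from lists. Over all genes, 5.21% were called lower and 3.52% higher in the mScarlet-positive gates. Of 34 further origin and fork factors, 2 were called lower, a share near that of all genes, Chtf18 (log2 fold change -1.41 with SE 0.28, adjusted p = 0.00608 in edgeR), part of an alternative clamp loader, and Pold4 (log2 fold change -0.61 with SE 0.15, adjusted p = 0.0184 in edgeR), a small polymerase delta subunit, with a list median of -0.29. Of 18 further enzymes of deoxyribonucleotide supply, 3 were called lower, Mthfd2 (log2 fold change -1.25 with SE 0.30, adjusted p = 0.0171 in edgeR) and Shmt2 (log2 fold change -0.55 with SE 0.11, adjusted p = 0.00821 in edgeR), which work in mitochondrial folate metabolism, and Impdh2 (log2 fold change -0.39 with SE 0.09, adjusted p = 0.0184 in edgeR), the guanine nucleotide enzyme, with a median of -0.36. Of 24 genes of replication-coupled chromatin and repair, 1 was called lower, again near the share of all genes, the histone chaperone Asf1b (log2 fold change -1.20 with SE 0.27, adjusted p = 0.0123 in edgeR), with a median of -0.36. Of 25 genes of E2F and G1/S control, Ccna2 (log2 fold change -1.51 with SE 0.30, adjusted p = 0.00608 in edgeR), Cdk4 (log2 fold change -0.38 with SE 0.08, adjusted p = 0.0112 in edgeR) and Ccnd3 (log2 fold change -0.33 with SE 0.08, adjusted p = 0.0201 in edgeR) were called lower, while Cdc25a, a phosphatase that activates Cdk2 (log2 fold change 0.67 with SE 0.15, adjusted p = 0.0126 in edgeR), and Ccnd2, a D-type cyclin (log2 fold change 0.54 with SE 0.15, adjusted p = 0.0308 in edgeR), were called higher. Cdc25a is itself known as an E2F target, and it was at 50.3, 43.1, 42.6 and 31.1 CPM in the mScarlet gate, 40, 45.7, 42.2 and 38.1 in the DP gate, 15.8, 29.3, 29.2 and 20.7 in the GFP gate and 20.5, 32.6, 31.9 and 29.7 in the DN gate.

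The G2/M list holds genes of mitotic entry and the spindle. All 22 genes had negative values in the mScarlet-positive gates, with a median of -1.31, and 13 were called lower, against 5.21% of all genes. The largest were Aurka (log2 fold change -1.68 with SE 0.31, adjusted p = 0.00454 in edgeR), Ccnb1 (log2 fold change -1.67 with SE 0.33, adjusted p = 0.00668 in edgeR), Cenpa (log2 fold change -1.65 with SE 0.25, adjusted p = 0.00124 in edgeR) and Birc5 (log2 fold change -1.62 with SE 0.32, adjusted p = 0.00713 in edgeR). Aurka, a mitotic kinase, was at 8.69, 13.6, 6.85 and 15.1 CPM in the mScarlet gate, 11, 4.81, 7.09 and 17 in the DP gate, 50.8, 27.3, 15.7 and 27.9 in the GFP gate and 67.7, 27.9, 26.3 and 27.9 in the DN gate. Without GFP libraries 1 and 4, 10 of the 22 were called lower, against 2.35% of all genes. Of the marker sums given above, the fibroblast levels were lower in every mScarlet library than in every DN library. They were also lower in every mScarlet and DP library than in every GFP library. The macrophage levels overlapped among all gates. Within each library number, though, they were higher in DP (13700, 9460, 6880 and 12700 CPM) than in DN (7010, 5140, 5440 and 4550 CPM). Acinar markers summed to 68.2 to 1380 CPM in the mScarlet gate, 46.4 to 186 in the DP gate, 374 to 27100 in the GFP gate and 93.8 to 904 in the DN gate. Endothelial markers summed to 9.73 to 12.6 CPM in the mScarlet gate and 11.4 to 13.1 in the DP gate. They summed to 11.7 to 53.8 CPM in the GFP gate and 18.3 to 28.4 in the DN gate. Epithelial markers summed to 27100 to 41600 CPM in the mScarlet gate and 26400 to 33600 in the DP gate. They summed to 15300 (GFP 1) to 28900 CPM in the GFP gate and 23800 to 27700 in the DN gate. The part of these cell types in the results was not tested beyond the counts without GFP libraries 1 and 4. Those counts keep GFP 2, which held 1730 CPM of fibroblast genes and 2480 CPM of acinar enzymes, against 810 and 874 CPM in GFP 1.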

How the data were processed

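The files deposited by the authors give raw read counts for each Entrez gene identifier, as whole numbers. Per the labels' protocols, RNA of sorted cells was made into full-length cDNA and amplified by PCR for low input, so reads are not independent molecules. The submitters' processing notes name GRCm38 (mm10), STAR and DESeq2 1.24.0. The sources used here do not say which tool counted the reads, over which annotation and with which strand setting, so reads of overlapping genes cannot be told apart.

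Counts of 16 libraries (80647185 to 104273669 each) entered edgeR 4.0.16 in R 4.3.3, with its expression filter by group (15963 genes), TMM scaling and robust quasi-likelihood tests with group as the only term. Fold changes carry the standard error (SE) from the F statistic. Alternatives were limma 3.58.1 voom, DESeq2 1.42.0, other scalings and filters, a replicate block and left-out libraries. The identifiers without a symbol (30 of 24467) held 0.723% to 1.931% of counts and stayed in the totals. Exon lengths came from GENCODE M21.

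The title of each library carries a number from 1 to 4. Deviations from group means of same-numbered libraries correlated at 0.092 to 0.608, over 0.1 in 23 of 24 pairs, against a median of -0.138 in the other 72. Between mScarlet and GFP the same-numbered values were 0.092 to 0.186. The main fit has group as its only term and leaves this pairing out. Of the fits, only those with the replicate block, which add library number as a term, use it. The counts of genes and the marker sums compared within a number use it too, without a test. The labels do not say that a number marks a shared mouse. Replicates always differed by more than sampling noise (chi-square per degree of freedom at least 91.79).

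The members, gene lists and tests were chosen with earlier results of these data known. Genes named were all members, with values per library for called members and, per role, the largest and smallest difference in mScarlet vs DN. Of other lists the called genes were named, or the 4 with the largest fold change where over 4 were called. Beyond that rule, all 5 called genes of E2F and G1/S control were named. So were the G2/M genes called in mScarlet vs DN, DP vs DN or DP vs GFP. Scripts were tested on simulated data.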

Additional observations from a re-analysis of the deposited data

Results flagged for a closer look

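In 15 of 180 gene and gate combinations, 1 of the 4 libraries stood apart from the other 3 by Dixon's criterion on the gap to the nearest library over the range, which chance meets in about 1 in 20. GFP library 1 was the high one for Cdc6 (29.5 CPM, the others 11.8 to 12.4), Cdc45 (37.6, the others 17.5 to 19.9), Gins3 (4.19, the others 1.75 to 1.93) and Tyms (68.1, the others 39 to 42.7). DN library 1 was the high one for Rfc2 (189, the others 148 to 151), Rfc5 (117, the others 93.5 to 96.9), Uhrf1 (144, the others 75.5 to 79.7) and Chaf1a (55.2, the others 27.1 to 29.9). In DP, library 2 was low for Mcm6 (77.4, the others 96.8 to 99.9) and Lig1 (19.7, the others all 22.3), library 1 was low for Tk1 (21.3, the others 32.6 to 33.7), library 4 was high for Rfc4 (10.1, the others 8 to 8.17) and library 3 was high for Rpa1 (63.8, the others 49.8 to 50.1). Orc6 was low in GFP library 3 (14.6, the others 19.2 to 20.1) and Rfc1 was low in mScarlet library 4 (10.3, the others 12.7 to 13.2). All values are in CPM.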

How the results depend on the processing

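Of 28 alternatives, 24 were planned and 4 were added after the data were seen (no robust dispersion, without GFP libraries 1 and 4 with and without the replicate block, and without the 4 libraries numbered 1). None turned the direction of a called member or of a comparison's median, except that the median of the interaction, which had no call, changed sign under several (0.05 with library totals alone, 0.04 with limma voom, 0.24 without GFP library 1). The pairs of gates fitted alone exist only for the 6 pairwise comparisons. Depth limits the members with few reads most: 16 of 45 had under 1000 counts in at least 1 library, and Orc1, Gins3, Pola1 and Pole2 had under 1000 in every library. Members called in mScarlet vs DN numbered 11 with DESeq2, 9 with the replicate block, 6 with the 2 groups alone, 14 without GFP libraries 1 and 4, 19 without them and with the block, and 0 without the libraries numbered 1. In DP vs DN they numbered 23 with DESeq2, 20 with the 2 groups alone, 21 with the replicate block, 21 without GFP libraries 1 and 4, 30 without them and with the block, and 2 without the libraries numbered 1. In GFP vs mScarlet they numbered 1 with DESeq2 size factors, 1 with a stricter low-count filter, 10 with DESeq2, 4 with the replicate block and 1 with the block and without GFP libraries 1 and 4. In DP vs GFP they numbered 4 with DESeq2 size factors, 0 with library totals alone, 4 with the stricter filter, 17 with DESeq2, 7 with the replicate block, 0 with the 2 groups alone, 0 without GFP libraries 1 and 4 and 0 without the libraries numbered 1. For the mScarlet-positive gates the count was 27 with the replicate block, which added Pold1 and Dut, 18 without GFP libraries 1 and 4, and 6 without the libraries numbered 1. The replicate block changed no other call of a comparison's count by over 1.5 times.

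Over all genes, DESeq2 called 808 in mScarlet vs DN, 1020 in DP vs DN, 246 in GFP vs DN, 1523 in GFP vs mScarlet, 1005 in DP vs GFP, 50 in DP vs mScarlet, 2338 for the mScarlet-positive gates, 323 for the GFP-positive gates and 39 in the interaction. In that order, without DP vs mScarlet and the interaction, the replicate block called 865, 1017, 11, 1190, 813, 2297 and 80. The 2 groups alone gave 343 in mScarlet vs DN, 578 in DP vs DN, 2 in GFP vs mScarlet and 1 in DP vs GFP. Without GFP libraries 1 and 4 there were 580 in mScarlet vs DN, 761 in DP vs DN, 2 in GFP vs mScarlet, 1 in DP vs GFP, 681 for the mScarlet-positive and 2 for the GFP-positive gates, and with the block added 1462 in mScarlet vs DN, 1778 in DP vs DN, 2 in GFP vs DN, 393 in GFP vs mScarlet, 188 in DP vs GFP, 2 in DP vs mScarlet and 89 for the GFP-positive gates. Without the libraries numbered 1 there were 24 in mScarlet vs DN, 94 in DP vs DN, 0 in GFP vs mScarlet, 0 in DP vs GFP, 330 for the mScarlet-positive and 2 for the GFP-positive gates. Voom called 1 in GFP vs DN and 147 in GFP vs mScarlet. Without a low-count filter there were 141 in GFP vs mScarlet, 1 in DP vs mScarlet and 1 for the GFP-positive gates, and with the stricter filter 380 in GFP vs mScarlet and 148 in DP vs GFP, where DESeq2 size factors gave 137. Without the libraries numbered 1 the member medians were -0.37 in mScarlet vs DN, 0.19 in GFP vs mScarlet, -0.41 in DP vs GFP and -0.45 for the mScarlet-positive gates. The causes were not tested.

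Leaving out 1 library at a time gave 0 to 10 members called in mScarlet vs DN, 3 to 18 in DP vs DN, 0 to 1 in GFP vs mScarlet, 0 to 8 in DP vs GFP and 18 to 26 for the mScarlet-positive gates. Over all genes it gave 17 to 362 in mScarlet vs DN, 105 to 532 in DP vs DN, 0 to 2 in GFP vs DN, 6 to 524 in GFP vs mScarlet, 1 to 297 in DP vs GFP, 0 to 1 in DP vs mScarlet, 861 to 1640 for the mScarlet-positive gates and 0 to 5 for the GFP-positive gates. The member median of the interaction ran from -0.19 to 0.24.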

Other observations

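Mitotic genes were also called in the single pairs of gates. In mScarlet vs DN, 3 of 22 G2/M genes were called lower, against 0.695% of all genes, Cenpa (log2 fold change -1.80 with SE 0.36, adjusted p = 0.025 in edgeR), which encodes the centromeric histone, Cdc20 (log2 fold change -1.52 with SE 0.28, adjusted p = 0.0168 in edgeR), an activator of the anaphase-promoting complex, and Plk1 (log2 fold change -1.36 with SE 0.29, adjusted p = 0.0339 in edgeR), a mitotic kinase. In DP vs DN, Cenpa, Birc5, Aurka, Ccnb1, Ube2c, Kif20a, Cdc20, Plk1, Aurkb and Cdk1 of the 22 were called lower, against 1.71% of all genes. Their log2 fold changes ran from -2.15 (Cenpa) to -1.32 (Cdk1). DP vs GFP shares no library with mScarlet vs DN, though the library numbers link them. There Cdc20 (log2 fold change -1.49 with SE 0.28, adjusted p = 0.0327 in edgeR), Plk1 (log2 fold change -1.48 with SE 0.29, adjusted p = 0.0353 in edgeR) and Aurkb (log2 fold change -1.47 with SE 0.31, adjusted p = 0.0471 in edgeR), a further mitotic kinase, were called lower, against 0.363% of all genes. Cdc20 was at 30.4, 29.6, 54.7 and 51.4 CPM in the mScarlet gate, 32.3, 25.7, 35.8 and 41.3 in the DP gate, 136, 91.1, 66.1 and 85.5 in the GFP gate and 178, 110, 88 and 102 in the DN gate. All mScarlet and DP libraries of Cdc20 thus lay below all GFP and DN libraries. Without GFP libraries 1 and 4, 9 of the 22 genes were called lower in mScarlet vs DN, against 1.83% of all genes, and 0 in DP vs GFP.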
